A study of Homo sapiens with 24 samples.

Results

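Glycolysis, gluconeogenesis and hypoxia genes are described here in A549 cells treated with the synthetic glucocorticoid dexamethasone (dex) or with its vehicle, ethanol (EtOH). The set holds 36 genes named by symbol, of 33127 genes in the count table. They were chosen for what their products do, with earlier results of these data known. All 36 were found, in 254 transcript rows, and together they took from 1.6% to 2.03% of the counts of a library. A549 is an established line of human lung adenocarcinoma, kept in medium with fetal bovine serum in every group. Each dex group received 100 nM dex carried in EtOH, and each EtOH group the same volume of EtOH alone, 0.02% of the medium. RNA was collected every 2 h from 1 to 11 h, with 2 libraries for each treatment and time, 12 groups and 24 libraries in all, which the labels call biological replicates.

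Glycolysis splits glucose into pyruvate, which lactate dehydrogenase turns into lactate or which enters the mitochondrion through the pyruvate dehydrogenase complex. Hexokinase, phosphofructokinase and pyruvate kinase catalyse its irreversible steps, and fructose 2,6-bisphosphate, made and broken down by the PFKFB enzymes, is the strongest activator of phosphofructokinase. Gluconeogenesis runs the reversible steps backwards and bypasses those of pyruvate kinase and phosphofructokinase through pyruvate carboxylase, phosphoenolpyruvate carboxykinase and fructose 1,6-bisphosphatase. Hypoxia-inducible factors (HIFs) turn on many of the same genes when oxygen is short, because the EGLN prolyl hydroxylases then no longer mark the HIF alpha subunits for destruction. Glucocorticoids are named for their action on glucose in the liver, where they induce gluconeogenic enzymes through the glucocorticoid receptor.

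The HIF dimer binds a short core, ACGTG or GCGTG, so the windows around the start sites of the members (250 bases before to 50 after, from RefSeq on GRCh38.p14) were searched for both on either strand. The windows of 33 members were in the RefSeq table, 62 windows in all. At least one core stood in 61.3% of these 62 windows and in 48.4% of 35116 windows of 27305 genes. By gene, 30 of the 33 members held a core, against 52.4% of all genes, though the members had more windows each, which raises a count by gene. The palindrome of the receptor's response element, GNACA and TGTNC 3 bases apart, stood in 0 of the 62 windows and in 0.39% of all windows. Stretches upstream of 3 members are shown because a core of either form stood before genes that went opposite ways: LDHA and PC were higher with dex and PFKFB3 was lower. Capitals mark the cores. In LDHA the capitals hold ACGTG on both strands, overlapping, in PC they hold it 2 times, and in PFKFB3 they are GCGTG read from the other strand.
LDHA (chr11:18394313-18394387, plus strand): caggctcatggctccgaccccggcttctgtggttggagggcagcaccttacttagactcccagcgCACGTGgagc
PC (chr11:66958377-66958633, minus strand): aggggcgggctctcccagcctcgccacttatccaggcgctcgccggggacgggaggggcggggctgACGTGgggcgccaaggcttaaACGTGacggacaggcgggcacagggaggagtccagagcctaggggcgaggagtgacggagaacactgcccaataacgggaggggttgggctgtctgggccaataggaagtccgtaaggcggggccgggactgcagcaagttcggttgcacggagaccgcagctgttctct
PFKFB3 (chr10:6144671-6144933, plus strand): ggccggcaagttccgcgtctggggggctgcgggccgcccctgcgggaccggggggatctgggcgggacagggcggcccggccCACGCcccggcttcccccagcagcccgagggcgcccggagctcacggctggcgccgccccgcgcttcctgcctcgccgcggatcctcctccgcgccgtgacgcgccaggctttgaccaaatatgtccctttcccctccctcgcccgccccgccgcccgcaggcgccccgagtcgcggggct
A core held by a window is a match of letters only. Among the 7 members with a window that were higher with dex at consecutive times, 7 held a core, as did 4 of 5 that were lower. By window the order was the reverse. A core stood in 10 of 19 windows (52.6%) of the higher members and in 5 of 6 (83.3%) of the lower ones, against 48.4% of all windows. HK1 alone held 7 of the 19 windows, 2 of them with a core. Windows of 1 gene can overlap, so this order by window rests on few genes.

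Library totals ran from 6708864 to 13748598 counts. The glucocorticoid targets FKBP5, TSC22D3 and PER1 were higher with dex, as the labels say, at every time except FKBP5 at 1 h (log2 fold changes of 3.38 to 4.14 for FKBP5 from 3 h). KRT8 lay between 1439 and 5108 CPM (counts scaled to the size of the library). Of 3 markers high in cells with the KEAP1 mutation of A549, AKR1B10 lay between 1633 and 2708 CPM. It was called lower with dex at 5, 7 and 9 h (-0.30, -0.18 and -0.42). The other 2, AKR1C1 and AKR1C2, were called at no time, with log2 fold changes of -0.21 to 0.19 and of -0.14 to 0.22. The 4 markers of alveolar type II cells summed to at most 0.723 CPM, with SFTPA1 at 0 in every library, and the 3 leukocyte markers to between 0.736 and 3.6 CPM, nearly all of it CD14 (7 to 36 counts per library), with CD3E at 0. Of the 5 epithelial markers, KRT8 and KRT18 were higher with dex from 3 to 11 h and CDH1 at 5 and 7 h, while EPCAM was lower from 5 to 9 h and KRT19 at 5 and 9 h. Of the 3 fibroblast markers, COL1A1 was higher at 3 h (0.57) and lower at 5, 7 and 9 h (-1.20, -1.03 and -1.37), COL1A2 was at 0 to 1 count in every library, and the list summed to between 6.5 and 23.7 CPM in dex and between 13.4 and 21 CPM in EtOH. Their part in the results was not tested. The pair of libraries lay more than 1.2-fold apart for 18 of 34 members in dex at 11 h and for 15 in EtOH at 9 h, against 3 to 10 in the other 10 groups. In bulk RNA, fewer cells of a kind and less RNA per cell cannot be told apart.

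Of the 36 members, 34 had enough counts to test. Each time was fitted by itself with edgeR's quasi-likelihood test over 19897 genes, and a gene was called at a Benjamini-Hochberg adjusted p of 0.1 or less. All adjusted p-values below come from this edgeR test unless another is named, and fold changes are log2 of dex over EtOH with the standard error (SE). At 1 h, when 0.488% of all genes tested were called higher and 0.337% lower, edgeR called 0 members. An unadjusted edgeR p under 0.05 was held by 6 of 34 members and by 1303 of all 19897 genes. DESeq2 called 1 member at 1 h, and 77 of all genes higher and 47 lower. At 3 h, 8 members were higher and 2 lower (8 and 4 with DESeq2's size factors in place of TMM), against 7.85% and 5.02% of all genes. At 5 h, 9 were higher and 7 lower (11.4% and 11.7% of all genes), and at 7 h, 11 were higher and 6 lower (13.4% and 12.4%). The count was 5 higher and 7 lower at 9 h (9.31% and 8.78%) and 4 higher and 3 lower at 11 h (5.39% and 3.29%). The median log2 fold change of the 34 members stayed between -0.13 and 0.11, while that of all genes stayed between -0.02 and 0.01, so members moved both ways. The counts at the last times hung on single libraries. At 9 h the total of 12 fell without either dex library and rose without the first EtOH library. At 11 h the total of 7 rose without either dex library and fell without either EtOH library. The total over all genes moved in the same direction each time.

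**Figure D1:**
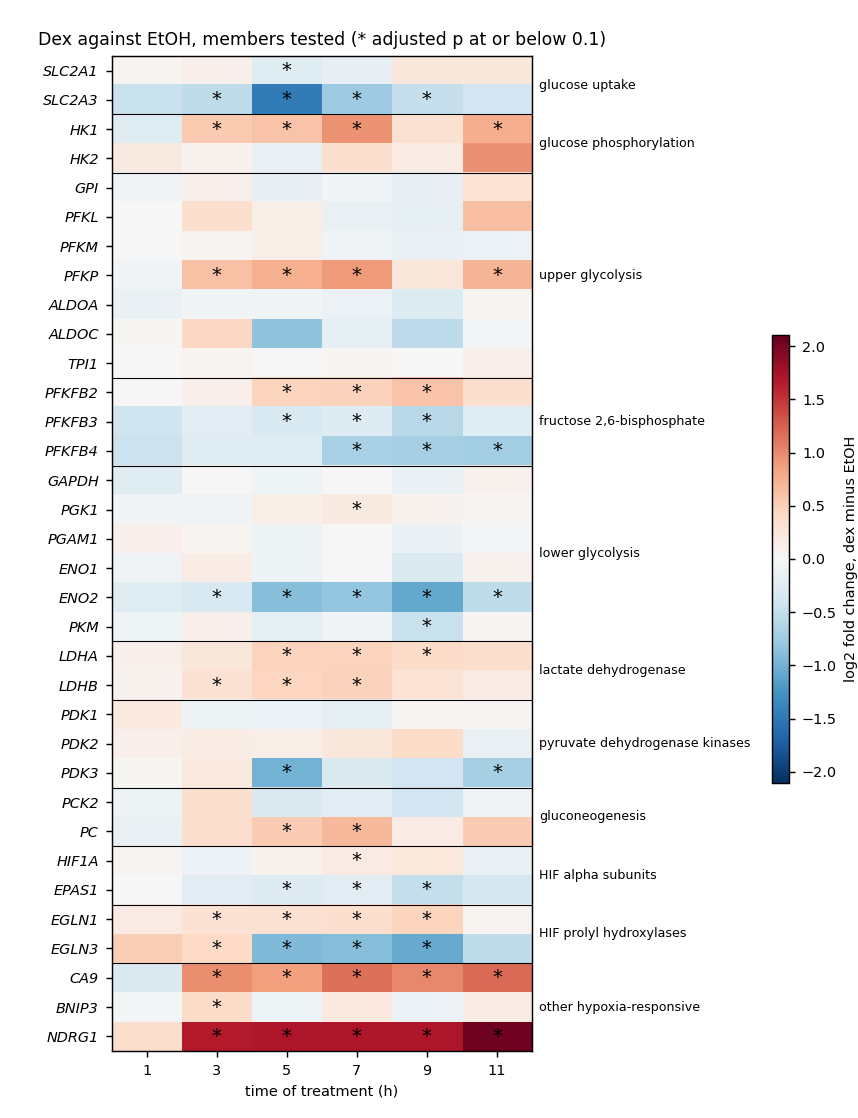
Log2 fold change of dex over EtOH (colour, red higher and blue lower with dex) for the 34 members tested (rows, grouped by role) at each time of treatment in hours (columns), from 2 against 2 libraries. An asterisk marks an adjusted p of 0.1 or less. NDRG1 and CA9 are red from 3 h on, while SLC2A3 and ENO2 are blue at every time, and rows such as GPI and TPI1 carry no asterisk.

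Across the course, 9 members were called higher at 2 or more consecutive times (NDRG1, CA9, PFKP, HK1, PC, LDHA, PFKFB2, LDHB and EGLN1) and 6 lower (SLC2A3, ENO2, PFKFB4, EGLN3, PFKFB3 and EPAS1). The same rule took 9.67% of all genes tested as higher and 8.55% as lower. A further 6 were called at single or separated times (SLC2A1, PDK3, PGK1, PKM, HIF1A and BNIP3). The 13 never called were HK2, GPI, PFKL, PFKM, ALDOA, ALDOC, TPI1, GAPDH, PGAM1, ENO1, PDK1, PDK2 and PCK2, which include most of the enzymes of the main glycolytic chain. FBP1, the gluconeogenic fructose 1,6-bisphosphatase, had at most 1 count in a library and HIF3A, a HIF alpha subunit that can act as an inhibitor, at most 6, and neither was tested.

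The largest increases of the set were in genes that respond to hypoxia but are not glycolytic enzymes. NDRG1, on chromosome 8, encodes a cytosolic protein linked to stress and differentiation. It was measured at 92.3 and 84.7 CPM in the dex libraries of 7 h and at 29.5 and 25.5 CPM in the EtOH libraries. Over the course the 12 dex libraries lay between 33.4 and 133 CPM and the 12 EtOH libraries between 23.2 and 32.2 CPM, so that the groups did not overlap. The log2 fold change at 7 h was 1.69 ± 0.10 SE (adjusted p = 2.19e-15), and it ran from 1.66 at 3 h to 2.04 at 11 h. At 1 h it was 0.37 ± 0.15 SE (adjusted p = 0.594).

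CA9 (chr9:35673856-35681159) encodes carbonic anhydrase IX, a membrane enzyme that helps cells to export acid and is a standard marker of hypoxic tumour cells. At 3 h it stood at 28.1 and 28.7 CPM in dex and at 11.9 and 16.6 CPM in EtOH. Every dex library from 3 h on was above every EtOH library of the course, while both dex libraries of 1 h, at 12 and 12.3 CPM, lay below both EtOH libraries of that time. The log2 fold change was 0.98 ± 0.15 SE at 3 h (adjusted p = 2.04e-05) and 1.19 ± 0.20 SE at 11 h (adjusted p = 0.00198). CA9 shares 643 exon bases on opposite strands with ARHGEF39, and the use of strand in counting is not given in the sources used here. ARHGEF39 itself was called at no time, with its smallest adjusted p of 0.113 at 3 h. BNIP3, a mitochondrial protein that promotes mitophagy, was called only at 3 h (0.39 ± 0.11 SE, adjusted p = 0.013), and the call was lost without the first dex library (adjusted p = 0.166).

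**Figure D2:**
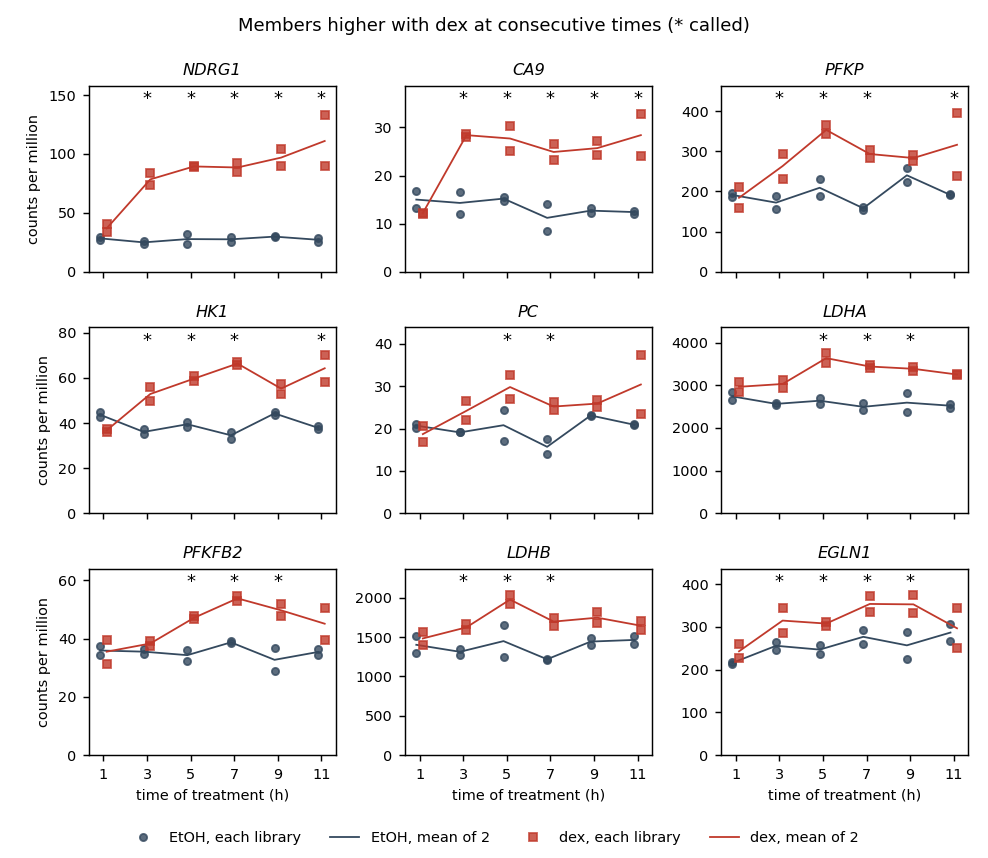
CPM (vertical axis, from 0) against time of treatment in hours for the 9 members called higher at consecutive times, with one point for each library, a line through the mean of the 2 libraries, squares for dex and circles for EtOH. Asterisks mark called times. NDRG1 and LDHA show every dex point above every EtOH point, and PFKP and PC show 2 dex libraries far apart at 11 h (238 and 394 CPM, and 23.5 and 37.3 CPM).

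The oxygen sensors were both called higher at 3 h and went in opposite directions from 5 to 9 h. EGLN1 (chr1:231363751-231425044) encodes PHD2, the main prolyl hydroxylase that acts on HIF1A, and EGLN3 (chr14:33924231-34462774) encodes PHD3, itself a classical HIF target. At 7 h EGLN1 was at 336 and 372 CPM in dex and at 259 and 294 CPM in EtOH. Both dex libraries were above both EtOH libraries, and the log2 fold change was 0.35 ± 0.08 SE (adjusted p = 0.000672, and 0.146 without the second dex library). EGLN1 was called higher at 3, 5, 7 and 9 h (0.30 to 0.46), while at 11 h it was 0.05 ± 0.16 SE.

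EGLN3 changed sign within the course. At 3 h its dex libraries, 25.8 and 22.9 CPM, were above its EtOH libraries, 18.5 and 17.9 CPM (0.42 ± 0.14 SE, adjusted p = 0.0607). At 5 h they had crossed: 10.9 and 9.86 CPM in dex against 17.9 and 21.6 CPM in EtOH. The difference at 5 h was -0.93 ± 0.17 SE (adjusted p = 4.41e-05), and it stayed at -0.90 at 7 h and -1.06 at 9 h. The EtOH means moved little, between 16.6 and 20.9 CPM.

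HIF1A and EPAS1 encode the alpha subunits of HIF-1 and HIF-2. EPAS1 was called lower at 5, 7 and 9 h, with log2 fold changes of -0.27, -0.24 and -0.50, and its 12 dex libraries (153 to 233 CPM) overlapped its 12 EtOH libraries (199 to 234 CPM). The 9 h call of EPAS1 was lost without either dex library of that time (adjusted p = 0.279 and 0.142). HIF1A was called once, at 7 h, by 0.18 ± 0.07 SE (adjusted p = 0.0678, and 0.159 with DESeq2), and 3 of the 4 fits that left out a library lost the call. Beside them, of the other 5 genes of oxygen sensing, 0 were called higher and 1 lower at consecutive times (9.67% and 8.55% of all genes). The 1 was ARNT2, a partner of HIF alpha subunits, at 21.5 and 19.2 CPM in dex and 39.9 and 39.9 CPM in EtOH at 5 h (-0.97 ± 0.13 SE, adjusted p = 1.80e-07).

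Of the glucose transporters, SLC2A3 (GLUT3, chr12:7919230-7936275) was among the most strongly lowered members. At 5 h it was at 13.4 and 11.9 CPM in dex and at 34.9 and 35.2 CPM in EtOH, the widest of its gaps over the course. The log2 fold change was -1.47 ± 0.15 SE (adjusted p = 6.13e-11), and it was smaller on either side, -0.54 at 3 h and -0.48 at 9 h. SLC2A1 (GLUT1), the transporter with the higher level per transcript length (160 against 29.1 in the median EtOH library, in TPM, counts divided by transcript length and scaled to the library), was called only at 5 h, by -0.26 ± 0.10 SE (adjusted p = 0.0659). That call was lost without the first dex or the second EtOH library of 5 h (adjusted p = 0.329 and 0.267) and with DESeq2 (adjusted p = 0.109).

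Hexokinases trap glucose in the cell as glucose 6-phosphate. HK1 (chr10:69269984-69401884) was at 65.8 and 66.9 CPM in dex at 7 h and at 33 and 36.2 CPM in EtOH. The dex libraries were well above the EtOH libraries, by 0.94 ± 0.10 SE (adjusted p = 3.33e-09). HK1 was called higher at 3, 5, 7 and 11 h, whereas at 9 h the difference was 0.32 ± 0.12 SE (adjusted p = 0.107), and at 1 h it was -0.25 ± 0.13 SE. HK2, the inducible form, was measured at 10 to 38 counts per library and passed at no time. HKDC1, a further hexokinase from a wider list of glycolytic genes, was lower from 5 to 11 h (-0.84 ± 0.14 SE at 9 h, adjusted p = 0.000609).

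In upper glycolysis 1 of 7 members was called higher at consecutive times and 0 lower, where the same rule took 9.67% and 8.55% of all genes. A count of 1 is too small to read against that share. PFKP (chr10:3066333-3137712), the platelet form of phosphofructokinase and the form with the highest level per length in these cells, was at 304 and 283 CPM in dex and at 154 and 162 CPM in EtOH at 7 h. The groups were far apart, by 0.89 ± 0.08 SE (adjusted p = 1.24e-11). It was called at 3, 5, 7 and 11 h (0.61 to 0.89), and at 9 h it was 0.24 ± 0.11 SE (adjusted p = 0.195), when the EtOH libraries reached 223 and 257 CPM. The liver and muscle forms, PFKL and PFKM, ran from -0.21 to 0.63 and from -0.14 to 0.13 in log2 fold change, and neither passed at any time. The remaining members of the stage (the isomerase GPI, the aldolases ALDOA and ALDOC and the triose phosphate isomerase TPI1) did not pass at any time either, although ALDOA passed in the fit over the whole course described below.

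The enzymes that set fructose 2,6-bisphosphate split in direction. PFKFB2 (chr1:207034366-207081024), known from heart, was at 54.7 and 53 CPM in dex and at 38.4 and 39.1 CPM in EtOH at 7 h. All of its dex libraries of 7 h were above those of EtOH (0.48 ± 0.10 SE, adjusted p = 0.000448), and it was also higher at 5 and 9 h. PFKFB2 shares 315 exon bases on opposite strands with YOD1, which was called higher at 3, 5, 7 and 9 h (0.33 to 0.99).

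PFKFB3 (chr10:6144934-6254644), the hypoxia-inducible form with the highest ratio of kinase to phosphatase activity, was at 362 and 347 CPM in dex and at 565 and 506 CPM in EtOH at 9 h. Its dex libraries were below its EtOH libraries, by -0.59 ± 0.11 SE (adjusted p = 0.00186), and it was lower at 5 and 7 h too (-0.32 and -0.27). The 9 h call was lost without either dex library of that time (adjusted p = 0.109 and 0.160). PFKFB4 (chr3:48517684-48562015), at 33 to 134 counts per library, stood at 6.72 and 5.02 CPM in dex and at 9.59 CPM in both EtOH libraries of 7 h. The difference was -0.68 ± 0.20 SE (adjusted p = 0.011), and the gene was also called at 9 and 11 h (-0.69 and -0.73). PFKFB4 shares 289 exon bases on the same strand with UCN2, which holds 1382 counts against 1869 over the 24 libraries and was itself called lower at 11 h (-0.98 ± 0.26 SE, adjusted p = 0.0376). Its 7 h call was lost without the second dex library (adjusted p = 0.181) and with DESeq2 (adjusted p = 0.209).

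**Figure D3:**
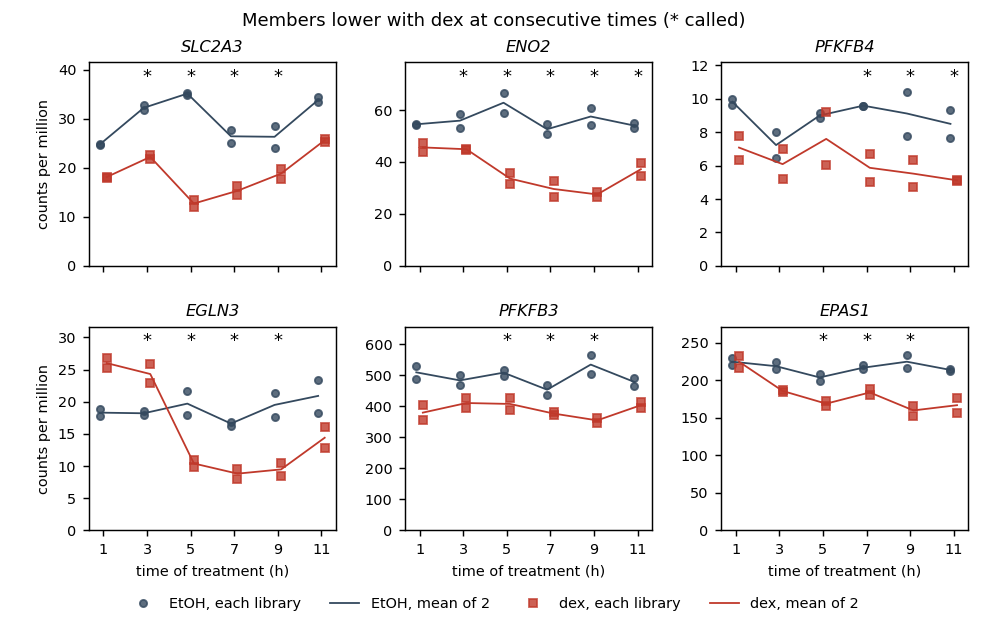
CPM (vertical axis, from 0) against time of treatment in hours for the 6 members called lower at consecutive times, with one point for each library, a line through the mean of the 2 libraries, squares for dex and circles for EtOH. Asterisks mark called times. The ENO2 points of dex lie below all of those of EtOH, and EGLN3 is above EtOH at 1 and 3 h (called higher at 3 h) and below it from 5 h.

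In lower glycolysis the neuronal enolase was the member that moved throughout. ENO2 (chr12:6913745-6923698) was at 31.6 and 35.6 CPM in dex and at 66.7 and 58.8 CPM in EtOH at 5 h. Its 12 dex libraries (26.6 to 47.3 CPM) did not overlap its 12 EtOH libraries (50.6 to 66.7 CPM). The log2 fold change was -0.90 ± 0.12 SE at 5 h (adjusted p = 1.32e-07), and ENO2 was called lower at 3, 5, 7, 9 and 11 h. ENO1, the abundant enolase, passed at no time (-0.30 to 0.15), and neither did GAPDH or PGAM1. PGK1, the phosphoglycerate kinase, was called at 7 h by 0.19 ± 0.07 SE (adjusted p = 0.0599, and 0.161 with DESeq2) and PKM, the pyruvate kinase, at 9 h by -0.47 ± 0.12 SE (adjusted p = 0.0148). Leaving out either dex library ended both of these calls (adjusted p = 0.253 and 0.365 for PGK1, 0.437 and 0.223 for PKM).

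GAPDH, often used as a reference gene, lay between 4250 and 6142 CPM over all 24 libraries. The antisense gene AC006064.4 shares 422 of its exon bases and holds 433904 counts over the 24 libraries, against 1298904 for GAPDH, and was called lower at 3 and 7 h (-0.46 and -0.22). With their counts added together GAPDH still passed at no time. ALDOA shares 1657 exon bases on the same strand with AC093512.2, which holds 37019 counts against 104115 and was called at no time.

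Both lactate dehydrogenase subunits were higher with dex. LDHA (chr11:18394388-18408425), which favours lactate production, was at 3470 and 3409 CPM in dex and at 2410 and 2579 CPM in EtOH at 7 h. Its 12 dex libraries (2844 to 3750 CPM) did not overlap its 12 EtOH libraries (2377 to 2831 CPM). The log2 fold change was 0.46 ± 0.07 SE at 7 h (adjusted p = 4.66e-06), and LDHA was called at 5, 7 and 9 h. LDHB (chr12:21635342-21757857), which favours the reverse reaction, was at 1646 and 1748 CPM in dex and at 1215 and 1222 CPM in EtOH at 7 h. The dex libraries were again the higher ones (0.48 ± 0.07 SE, adjusted p = 2.20e-06), and LDHB was called at 3, 5 and 7 h.

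Pyruvate dehydrogenase kinases switch off the entry of pyruvate into the citric acid cycle. PDK3, one of the forms known as HIF targets, was called lower at 5 and 11 h. At 5 h it was at 14.3 and 14.5 CPM in dex and at 27.9 and 29.5 CPM in EtOH, 2 clearly separate groups (-1.0 ± 0.15 SE, adjusted p = 8.39e-07). At 11 h the difference was -0.70 ± 0.18 SE (adjusted p = 0.032). At 3 h the values were 31.1 and 24.7 CPM in dex and 22.5 and 25.5 CPM in EtOH, which overlapped. PDK1 and PDK2 passed at no time. PDK4, a known glucocorticoid target from the wider list, was called higher at all 6 times, from 1.56 ± 0.13 SE at 1 h (adjusted p = 3.07e-07) to 2.22 ± 0.12 SE at 9 h (adjusted p = 1.52e-08).

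Of the gluconeogenic members only pyruvate carboxylase passed. PC (chr11:66848233-66958376), which makes oxaloacetate from pyruvate, was at 24.3 and 26.2 CPM in dex and at 17.5 and 13.9 CPM in EtOH at 7 h. The dex libraries were above the EtOH libraries (0.68 ± 0.14 SE, adjusted p = 0.00023), as they were at 5 h (0.53 ± 0.15 SE, adjusted p = 0.0117). PC shares 621 exon bases on opposite strands with LRFN4, which was called higher at 3, 5 and 7 h (0.76, 0.68 and 0.54). PCK2, the mitochondrial phosphoenolpyruvate carboxykinase, ran from -0.41 to 0.33 and passed at no time. PCK1, G6PC and FBP2, further gluconeogenic genes from the wider list, had too few counts to test.

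Per transcript length, the members spanned a wide range in EtOH. GAPDH came first with a median of 7691 TPM over the 12 EtOH libraries (6829 to 8631), and LDHA second with 3747 TPM (3460 to 4048). PKM, LDHB and ENO1 followed at 2478, 2299 and 2211 TPM, and their ranges overlapped, so their order is not set by these data. TPI1 (744 TPM) and ALDOA (714 TPM) overlapped as well. Among the kinases of the set, PFKP was at 255 TPM, PFKM at 33.6 and PFKL at 6.73, with no overlap between the ranges of these 3 forms. HK1 (22.7 TPM) was above HK2 (0.633 TPM) in every EtOH library, and HIF1A (434 TPM) above EPAS1 (101 TPM).

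The share of 1 form among related genes was also read, on the TPM scale. A share moves with the other genes of its sum as well. At 1 h PDK3 made up 24% and 28% of PDK1 to PDK4 in dex and 41.1% and 45.8% in EtOH, while its own log2 fold change was 0.02. SLC2A3 made up 6.76% and 8.59% of SLC2A1 and SLC2A3 together in the dex libraries of 5 h, and 15.9% and 17.1% in the EtOH libraries. The share of ENO2 among ENO1, ENO2 and ENO3 was 1.44% and 1.79% in dex and 2.52% and 2.73% in EtOH at 5 h. EGLN3 made up 7.77% and 8.64% of EGLN1, EGLN2 and EGLN3 in dex at 5 h and 18.9% and 21.4% in EtOH. PDK3 took 16.6% and 17.1% of PDK1 to PDK4 in dex at 5 h, and 49.1% and 54.4% in EtOH, while PDK4 took 69.1% and 69.8% in dex and 23.9% and 28.9% in EtOH. PFKFB2 had a larger share in dex, with a median of 6.78% over the dex libraries and 4.25% over the EtOH libraries, yet PFKFB3 still made up at least 89.6% of PFKFB2, PFKFB3 and PFKFB4 together in every library. PFKP took 83.9% to 91.9% of phosphofructokinase in dex and 84.3% to 88.8% in EtOH. These shares are descriptions with no test.

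**Figure D4:**
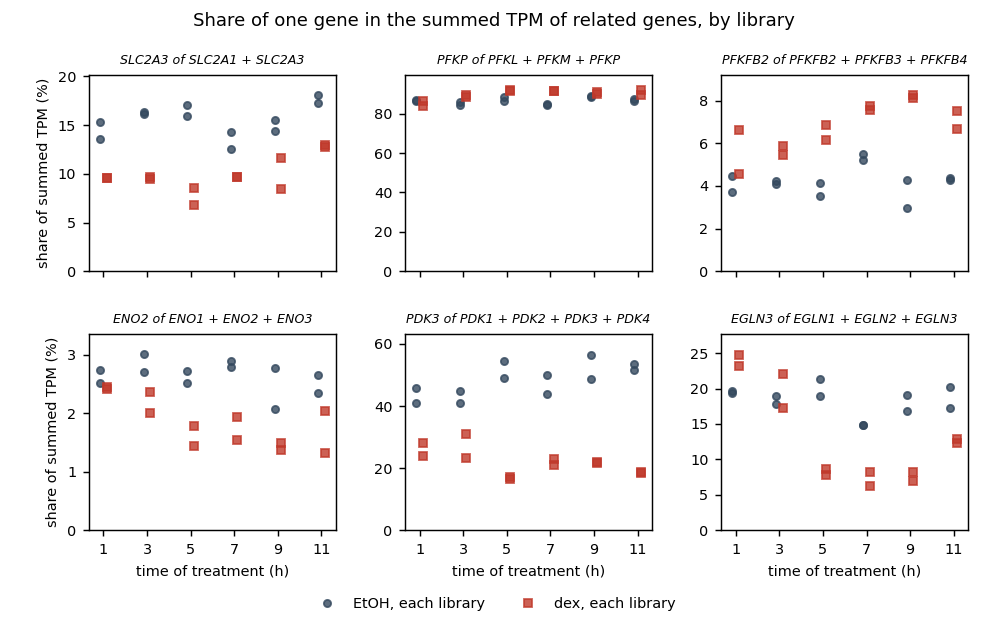
Share of one gene in the summed TPM of the genes named above each panel (vertical axis, percent, from 0) against time of treatment in hours, with one point for each library, squares for dex and circles for EtOH. SLC2A3, ENO2, PDK3 and EGLN3 have lower shares in dex than in EtOH at 5 h, PFKFB2 has a higher share, and PFKP holds most of the phosphofructokinase TPM in both treatments.

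In a fit to all 24 libraries, the mean of the 6 differences was called higher for 9 members and lower for 8, against 16.4% and 17.6% of all genes. The 9 were the same genes that were called higher at consecutive times. The 8 were the 6 lower members, PDK3 (-0.36 ± 0.06 SE, adjusted p = 3.17e-05) and ALDOA (-0.11 ± 0.04 SE, adjusted p = 0.0582). The difference between dex and EtOH varied between times for 8 members (adjusted p of 0.1 or less in an F-test of 5 contrasts), against 13.8% of all genes: SLC2A1, SLC2A3, HK1, ENO2, PDK3, EGLN3, CA9 and NDRG1. The count rose without either dex library of 11 h, and so did that of all genes. In EtOH alone, 0 members changed over time by the edgeR F-test, against 0.0704% of all genes. Of the 34 members tested, 5 had an unadjusted p under 0.05 in that test, against 2283 of all 19897 genes. DESeq2 called 2 members and 276 of all genes. The edgeR count rose when either dex library of 11 h was left out, and so did that of all genes. The EtOH means of a tested member differed between its highest and lowest time by 1.07-fold (PGK1) to 1.52-fold (PFKP).

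The pathways next to glycolysis were read from lists chosen by function, with earlier results of these data known. Counts above the share of all genes are therefore descriptions and no test. The lists held 72 genes, of which 61 had enough counts to test. Of these 61, 18 were called higher and 5 lower at consecutive times, where the same rule took 9.67% and 8.55% of all genes tested, so that the lower count is near the share of all genes. Glycogen metabolism held 6 higher and 0 lower of 9. PYGB, brain glycogen phosphorylase, which releases glucose 1-phosphate from glycogen, was at 594 and 580 CPM in dex and at 101 and 115 CPM in EtOH at 7 h. The groups were far apart (2.44 ± 0.08 SE, adjusted p = 5.18e-23). PPP1R3B and PPP1R3C, which target protein phosphatase 1 to glycogen, were both called at 5, 7 and 9 h (0.83 to 1.09 for PPP1R3B, 0.95 to 1.07 for PPP1R3C), and GYS1, glycogen synthase, at 5 and 7 h (0.55 and 0.61).

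The pyruvate dehydrogenase complex and the carriers of pyruvate and lactate held 4 higher and 0 lower of 12. SLC16A3 (MCT4), a lactate exporter that responds to hypoxia, was at 38.9 and 36.4 CPM in dex and at 18.8 and 20 CPM in EtOH at 5 h (0.95 ± 0.14 SE, adjusted p = 2.99e-07). Both dex libraries were above both EtOH libraries. PDP1, the phosphatase that switches pyruvate dehydrogenase on, was called at 3, 5, 9 and 11 h (0.55 to 0.78). PDHA1 and DLAT, subunits of the complex, were called at 5 and 7 h (0.23 to 0.31). The oxidative and non-oxidative pentose phosphate genes held 0 of 7 in either direction at consecutive times. At single times they went both ways, with 3 of 7 higher at 3 h (median 0.26) and 4 of 7 lower at 9 h (median -0.43). Of all genes, 7.85% were higher at 3 h and 8.78% lower at 9 h, with medians of 0.01 and -0.02. For the members and for all genes, the count of calls at 9 h hung on single libraries, as given above.

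Further targets of HIF held 7 higher and 2 lower of 20, the lower share being near that of all genes. LOX, lysyl oxidase, was at 10.8 and 11.7 CPM in dex and at 3.08 and 2.08 CPM in EtOH at 5 h (2.14 ± 0.25 SE, adjusted p = 2.25e-09). DDIT4, an inhibitor of mTORC1 signalling, was called at 3 to 11 h (0.79 to 1.23). It also changed over time in EtOH alone, where it lay between 49.7 and 99.6 CPM (adjusted p = 0.0831 in the edgeR F-test). KDM4B, a histone demethylase, was called at 5, 7 and 11 h (0.63 to 0.92). CA12, a carbonic anhydrase, and BNIP3L, a relative of BNIP3, were the 2 called lower (-0.63 and -0.31 at 5 h), and were named after their values were seen. Of the remaining glycolytic and gluconeogenic genes, 1 of 8 tested was higher (PDK4) and 2 lower (HKDC1 and ENO3, the muscle enolase, at -0.56 and -0.60 at 7 and 9 h).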

How the data were processed

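RNA-seq was measured in A549 cells in 24 libraries. Poly-A libraries that keep strand were read from one end over 50 bases. The authors mapped the reads with Bowtie to GENCODE transcripts and counted them with samtools, so the deposited values are raw counts per transcript. The placing of reads shared by several transcripts, and the use of strand, are not given in the sources used here. Treatment, time and replicate came from the labels. The study's methods speak of triplicates, whereas 2 libraries per treatment and time are analysed here. Their treatment text gives 1 h for every library, whereas their duration runs from 1 to 11 h and was used. The row of unplaced reads holds 0 counts.

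Transcripts were joined to genes through GENCODE 29 (GRCh38) by identifier without version, which matched 110262 of 119207 rows and 94.1% of counts, and were summed per gene. The others were kept as rows of their own. Counts were tested with edgeR 4.0.16 (TMM, filterByExpr over 12 groups, robust quasi-likelihood test, Benjamini-Hochberg adjustment over 19897 genes, threshold 0.1), each time by itself, 2 dex against 2 EtOH libraries. One fit to 24 libraries gave the mean effect, its difference between times and the course of EtOH. The study's methods name DESeq2, tried here as an alternative (1.42.0). The script was tested on simulated data. The SE is the log2 fold change divided by the root of its F statistic. CPM are counts scaled to the library size after TMM. TPM are sums of counts divided by transcript length, scaled over matched transcripts. With 6708864 to 13748598 counts per library and 2 libraries per group, calls rest on a spread shared between genes (coefficient of variation 6.48% at 7 h to 12.7% at 11 h).

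The 36 members and all lists were chosen with earlier results of these data known. Values in every library are given, at the time of the smallest p, for members called at 2 or more consecutive times (the 14 whose log2 fold change, averaged over the times, is largest in size), and at most 4 such genes are named from each neighbouring list. Beyond this rule, CA12, BNIP3L and the genes whose exons overlap members were named after their values were seen. A gene that this rule names among the further HIF targets is in their counts and is not reported here by name. Alternatives were DESeq2, its size factors, other filters, protein-coding transcripts, the most counted transcript of each gene, one fit for all times, a replicate block, a threshold of 0.05 and leaving out each library. The sum of GAPDH and ALDOA with their overlapping genes was chosen after seeing the data. R was 4.3.3, Python 3.11.15 and matplotlib 3.10.9.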

Additional observations from a re-analysis of the deposited data

Results flagged for a closer look

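The difference between dex and EtOH varied between the 6 times, by an F-test of 5 contrasts in edgeR's quasi-likelihood fit to 24 libraries, for 8 members. EGLN3 had the smallest adjusted p, 3.50e-06, with a difference of 0.42 at 3 h and -0.93 at 5 h. HK1 (adjusted p = 5.58e-05) was at -0.25 at 1 h and 0.94 at 7 h. NDRG1 (adjusted p = 0.000188) was at 0.37 at 1 h and 2.04 at 11 h. CA9 (adjusted p = 0.00218) was at -0.31 at 1 h and 1.19 at 11 h.

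SLC2A3 (adjusted p = 0.000581) was at -1.47 at 5 h and at -0.40 at 11 h. ENO2 (adjusted p = 0.00293) was at -0.26 at 1 h and -1.07 at 9 h. PDK3 (adjusted p = 0.00188) was at 0.21 at 3 h, -1.0 at 5 h and -0.30 at 7 h. SLC2A1 (adjusted p = 0.034) was at -0.26 at 5 h and 0.24 at 9 h.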

How the results depend on the processing

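The number of members called moved by more than 1.5 times at the edges of the course. At 1 h it was 0, and became 1 in one fit over 24 libraries, 1 with no filter, 1 with DESeq2 and 5 with a replicate block. At 3 h it was 10, and 5 with the most counted transcript of each gene. At 9 h it was 12, and 20 with a replicate block. At 11 h it was 7, and became 15 in one fit over 24 libraries and 3 with the most counted transcript. That one fit called 1722 of all genes higher and 1249 lower at 11 h, against 1072 and 655. In EtOH over time it was 0, and became 5 with no filter and 2 with DESeq2. Over all genes it was 14, and became 1423 with no filter and 276 with DESeq2. At 5 h, DESeq2 called 1241 genes of the whole table higher and 1239 lower, where edgeR called 2269 and 2319. Leaving out each library in turn gave 0 to 3 members at 1 h, 6 to 10 at 3 h, 13 to 14 at 5 h, 11 to 20 at 7 h, 4 to 21 at 9 h and 2 to 18 at 11 h, with 13 to 18 for the mean effect, 7 to 19 for the difference between times and 0 to 4 for EtOH over time. The 11 called at 7 h came without the second dex library and the 6 at 3 h without the first EtOH library. A fit with 1 library in a group assumes that it varies as the others do. The number of all genes called changed from fit to fit too, at 9 and 11 h in the direction given above for the members. Where the cause is not shown by how an alternative is made, it was not tested. Of the named fold changes, PFKM at 9 h went from -0.14 to 0.01 with the most counted transcript and TPI1 at 11 h, at 0.10, ran from -0.18 without the second to 0.34 without the first dex library, and neither was called with all libraries. The 15 members called at consecutive times kept their direction at their best time in every alternative, and those with no lost call when a library was left out were NDRG1, CA9, HK1, PFKP, PFKFB2, LDHA, LDHB, PC, SLC2A3, ENO2 and EGLN3. At their best times, SLC2A1, PGK1 and HIF1A were not called by DESeq2, with the most counted transcript or at a threshold of 0.05, PFKFB4 was not called by DESeq2, PGK1 and HIF1A were not called in one fit over 24 libraries, and HIF1A was not called with 10 counts in every library. Whether replicate numbers pair the libraries is not settled. The correlation of deviations between same-numbered libraries ran from -0.0588 to 0.135 over 19897 genes, and was highest at 1 h (0.135) and 9 h (0.102). At these times a replicate block raised the number of members called, from 0 to 5 and from 12 to 20. The number of all genes called rose too. At 1 h it went from 97 to 359 higher and from 67 to 269 lower. At 9 h it went from 1853 to 2622 higher and from 1746 to 2654 lower. The alternative of adding pseudogenes gave no value, because 0 of 146 pseudogenes named after members are in the count table. With 2 libraries per group and 33 to 134 counts, PFKFB4 was the shallowest member called at consecutive times.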
